A study of Mus musculus with 6 samples.

Results

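The genes described here are 8 drivers of spermatogonial differentiation, taken by name from a table of 23361 mouse genes: Kit and its ligand gene Kitl, the paired factors Sohlh1 and Sohlh2, Neurog3, Stra8, and the doublesex-related factors Dmrt1 and Dmrtb1. All 8 were found in the table, and 7 of them were expressed enough to be tested; Neurog3 was not. RNA came from whole testes of C57BL/6J mice of about 120 days, each carrying 2 copies of a Ret allele with the V805A substitution. RET is the kinase that relays the signal of the growth factor GDNF in spermatogonial stem cells, and the substitution opens the kinase to the compound 1NaPP1-HCl. The inhibitor group (3 mice) received 1NaPP1-HCl dissolved in a saline, cremophor and ethanol vehicle, at 10 microlitres per gram of body weight daily for 9 days, and the control group (3 mice) received the vehicle alone. Testes were taken on day 14, after 5 days with no injections. Both groups carry the substitution and no animals with unmodified Ret were analysed here, so an action through RET and an action through some other protein cannot be told apart.

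Spermatogonia are the mitotic germ cells at the edge of the seminiferous tubule. Undifferentiated ones, which include the stem cells, switch on the receptor tyrosine kinase KIT under retinoic acid and then divide on a fixed schedule until they enter meiosis. SOHLH1 and SOHLH2 are basic helix-loop-helix (bHLH) transcription factors that bind E-box sequences and are needed for that transition, NEUROG3 is a bHLH factor of undifferentiated cells that are primed to differentiate, DMRT1 and DMRTB1 (also called DMRT6) are DM-domain factors that time the exit from mitosis, and STRA8 is a retinoic acid-induced factor that starts the meiotic programme.

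The upstream sequence of Sohlh1 is shown because this gene had the lowest estimate among the tested members and because it holds several E-boxes. The letters are the 250 bases before the RefSeq start site, GRCm38.p6, chr2:25847249-25847498, reverse strand, 5′ to 3′, outside the annotated transcript. Capitals mark E-boxes (CANNTG), a nuclear receptor half-site (AGGTCA, which overlaps the second E-box) and a DM-domain core (ACANTGT).
Sohlh1: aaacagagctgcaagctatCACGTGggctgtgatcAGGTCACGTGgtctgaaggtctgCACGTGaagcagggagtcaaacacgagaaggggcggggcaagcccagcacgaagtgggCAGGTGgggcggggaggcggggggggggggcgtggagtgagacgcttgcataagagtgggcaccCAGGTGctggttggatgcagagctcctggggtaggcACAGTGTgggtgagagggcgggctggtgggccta

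These bases hold 5 E-boxes, 3 of them of the palindromic form CACGTG, at 231, 211 and 192 bases before the start. Searched on both strands with 1 start site per symbol, 66.0% of 27025 mouse promoters of that length held at least 1 CANNTG, 1.18% held at least 5, and 6.0% held CACGTG. At least 3 copies of CACGTG were found in 18 promoters (0.0666%). A match to these letters is a description of the sequence and does not show that a factor binds there.

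Shorter stretches of 30 bases show the matches in Sohlh2, Neurog3 and Stra8, for comparison with Sohlh1, with the matched letters in capitals (GRCm38.p6, forward strand). They lie at chr3:55181794-55181823 for Sohlh2, chr10:62132913-62132942 for Neurog3, and chr6:34920742-34920771, chr6:34920791-34920820 and chr6:34920898-34920927 for Stra8.
Sohlh2: cacaggcgtCAGATGggagtattttatcag
Neurog3: ttgtccggaatcCAGCTGtgctctgcgggt
Stra8 first half-site: gatggggtgaaaAGGTCAtcttgctccttc
Stra8 DM core: tggcaagttgttACAATGTtttcaccaatg
Stra8 second half-site: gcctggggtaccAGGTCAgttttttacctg

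Sohlh2 and Neurog3 each held 1 E-box and Stra8 held none. Stra8 had AGGTCA, the half-site recognised by retinoic acid receptors among others, at 194 and 38 bases before its RefSeq start; 1.32% of promoters held at least 2 copies and 13.8% at least 1. The Stra8 stretches fall inside exon 2 of the longer annotated transcript Stra8-201. Stra8 and Sohlh1 were the members with a DM core, which 6.6% of promoters held. Neither start site of Kit and not that of Kitl had an E-box, a half-site or a DM core, and both genes had GC boxes (GGGCGG, in 32.9% of promoters); Kitl also had a TATA box (TATAAA, in 3504 of the 27025 promoters) at 25 bases before its start. The start sites of Dmrtb1 held 3 and 2 E-boxes. The 250 bases of the first (chr4:107683590-107683839) lie wholly inside the annotated gene (107676290 to 107684230). Those of both Kit start sites, of Kitl and of Sohlh2 run past the annotated gene start. The TATA box of Kitl lies in the part inside the gene. Dmrt1 has no entry in the promoter table.

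**Figure D1:**
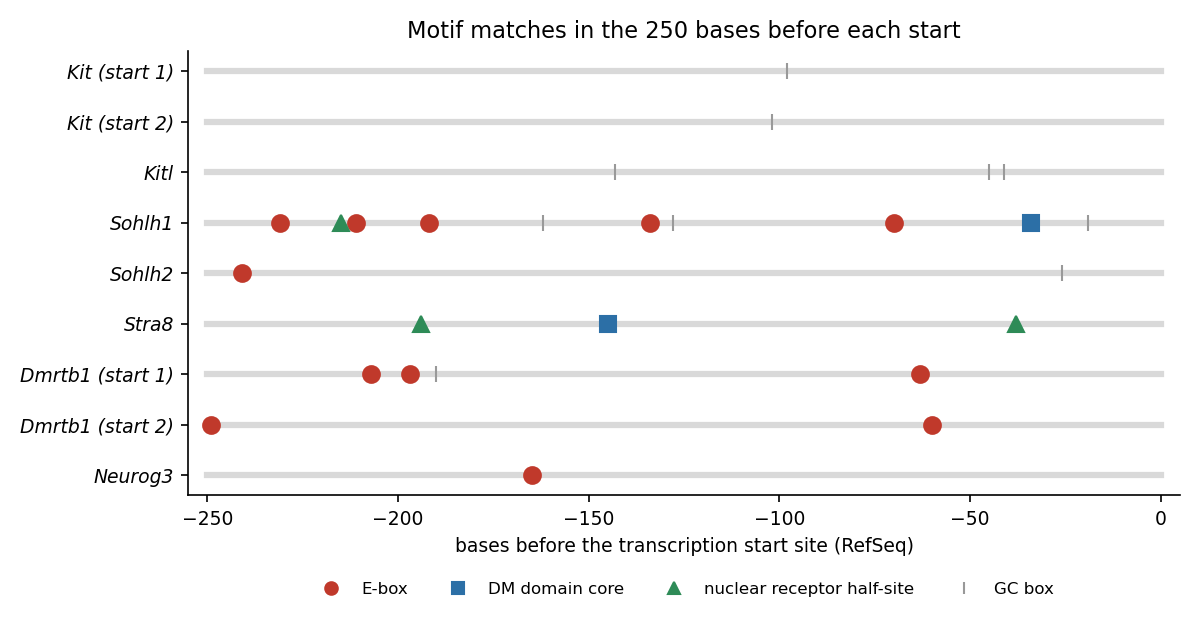
Positions of motif matches on either strand in the 250 bases before each RefSeq start site of 7 members (x axis, bases before the start; 1 row per start site). Of the motifs drawn, Sohlh1 carries 5 E-boxes, 1 half-site, 1 DM-domain core and 3 GC boxes, Stra8 carries 2 nuclear receptor half-sites and 1 DM-domain core, and Kit and Kitl carry GC boxes only.

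The libraries held between 23144295 and 43127892 fragments assigned to genes. Levels are given as CPM, fragments scaled to library size by the TMM method, and 1 CPM stood for about 23.1 to 43.1 fragments. Replicate mice differed beyond counting noise, with chi-square values per degree of freedom of 4.90 to 12.9 between inhibitor mice and 4.19 to 6.08 between control mice. Inhibitor mouse 3 stood apart from the other inhibitor mice (11.99 and 12.85), so results are also given without it. The spermatid gene Prm1 at 2497 to 3230 CPM and the Leydig cell gene Insl3 at 517 to 688 CPM are those of a testis. The labels name separate mice but say nothing of litter, cage or day of extraction, so p-values measure the spread between these animals only. In whole testis, fewer cells of a type and less RNA per cell cannot be told apart, which holds for every member below.

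Set against the controls, no member passed the threshold over all genes (edgeR, quasi-likelihood F-test, Benjamini-Hochberg adjusted p below 0.05), where 0.156% of the 16658 genes tested did. Sohlh1, Dmrt1, Stra8, Kit, Sohlh2 and Kitl had estimates below 0 and Dmrtb1 had one above 0. At an unadjusted p below 0.05 there were 2 members lower, Sohlh1 and Dmrt1, and 1 higher, Dmrtb1; of all genes tested, 8.48% were lower and 9.43% higher by that rule. The inhibitor and control values did not overlap in Sohlh1, Sohlh2 and Dmrt1, which were lower (11.9% of all genes), nor in Dmrtb1, which was higher (11% of all genes). DESeq2, the other count test, put Dmrt1 alone past its threshold (adjusted p = 0.0476, with 4.48% of genes called) and gave Sohlh1 no adjusted p. By limma on the deposited FPKM values no member passed. Of all 16658 genes, 0 passed there with log2(FPKM + 1) and 1 with log2(FPKM + 0.1).

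**Figure D2:**
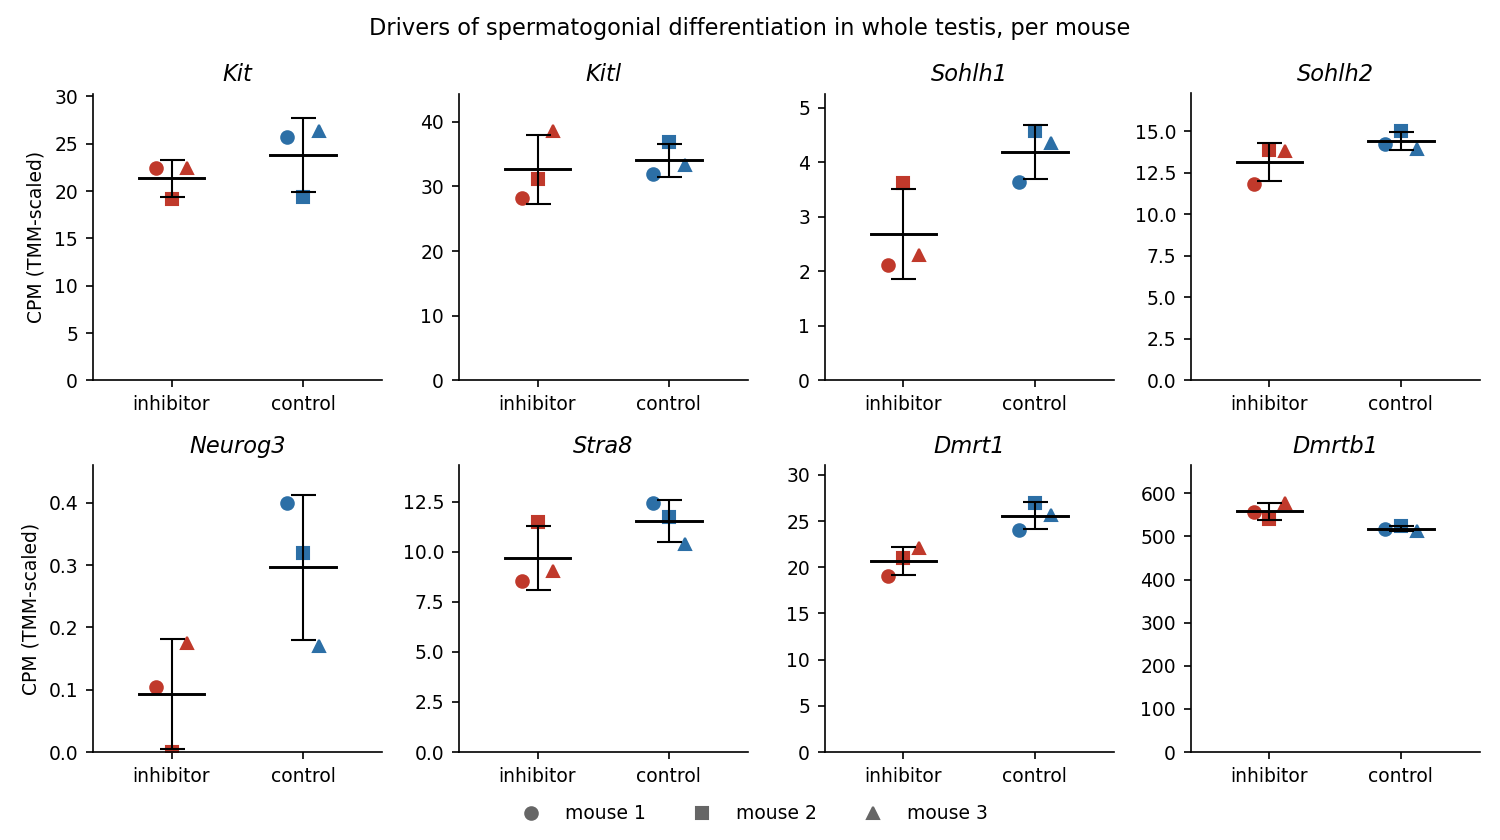
CPM of each of the 8 genes (y axes from 0, 1 scale per gene) in the 3 inhibitor mice (red, left) and the 3 control mice (blue, right). Bars are means ± SD. Marker shapes give the mouse number within a group, which the labels do not describe as a pairing of animals. Dmrt1 is lower in each inhibitor mouse than in any control, Sohlh1 of inhibitor mouse 2 lies beside that of control mouse 1, and Kit of control mouse 2 lies with the inhibitor mice.

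**Figure D3:**
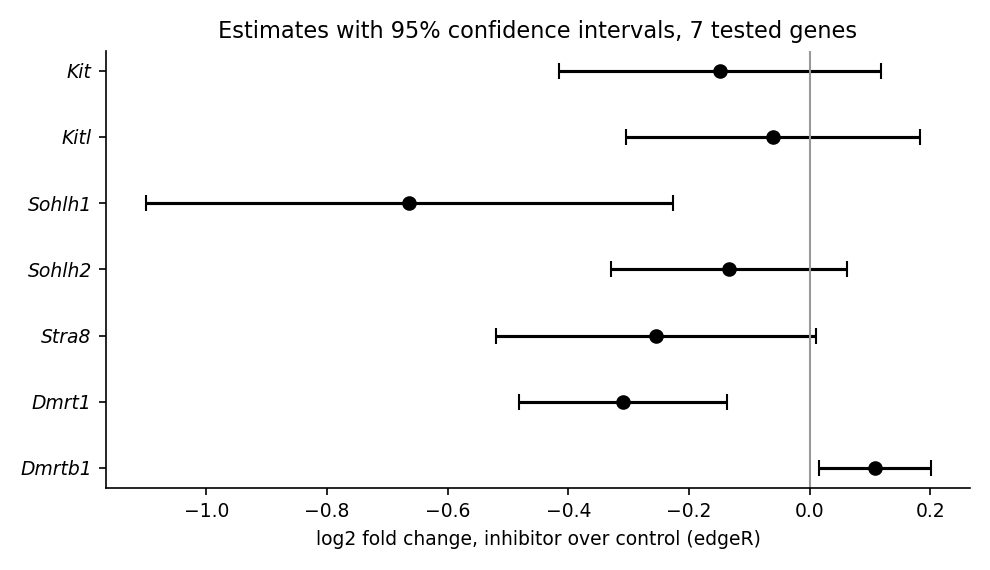
Log2 fold change of inhibitor over control (x axis) for the 7 tested members, with 95% confidence intervals from the edgeR fit, unadjusted for the number of genes. The intervals of Sohlh1, Dmrt1 and Dmrtb1 exclude 0 and those of Kit, Kitl, Sohlh2 and Stra8 include it.

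The ligand and receptor genes had estimates below 0 with intervals that included 0. KIT ligand, also called stem cell factor, is made by Sertoli cells and keeps KIT-bearing spermatogonia alive and dividing. Kitl (chromosome 10, 100015630 to 100100416, forward strand, GRCm38) stood at 28.2, 31.1 and 38.6 CPM in inhibitor mice 1, 2 and 3, against 31.9, 36.9 and 33.3 CPM in control mice 1, 2 and 3. The inhibitor values reached beyond the control range at both ends. Its log2 fold change was −0.06 (SE 0.109, 95% interval −0.31 to 0.18, edgeR adjusted p = 0.816), and its sign turned when inhibitor mouse 1 (0.0357) or control mouse 2 (0.0055) was left out. Without inhibitor mouse 3 it was −0.203 (edgeR adjusted p = 0.0926).

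Kit (chromosome 5, 75574916 to 75656722, forward strand), whose product is the receptor that defines differentiating spermatogonia, had 22.5, 19.11 and 22.4 CPM in the inhibitor mice and 25.7, 19.3 and 26.4 CPM in the controls. Control mouse 2 was the low one of its group and lay among the inhibitor mice, so the groups overlapped. The log2 fold change was −0.15 (SE 0.120, 95% interval −0.42 to 0.12, edgeR adjusted p = 0.555). Once trends on transcript length and GC content were taken out of each library it was −0.0861. With single mice left out it was −0.282 without control mouse 2 (edgeR adjusted p = 0.347), and −0.0579, −0.0778 and −0.0905 without control mouse 3, inhibitor mouse 2 and control mouse 1. Kit is also expressed in Leydig cells and mast cells, and spermatids make a shortened transcript from the same gene, which gene totals do not separate. Of the mast cell list, 7 of 9 genes were too low to test. Cpa3 had 4 to 9 fragments per library and Tpsab1 0 to 6. Fcer1a had 0 fragments in every library, and Tpsb2, Cma1, Mcpt4 and Ms4a2 had at most 1, 3, 2 and 1. The tested ones, Hdc (−0.13) and Gata2 (0.09), are expressed in other cells too. The list's summed level was 45.6 to 47.4 CPM in inhibitor mice against 44.4 to 49.5 CPM in controls. Nearly all of it came from Hdc (means 22.85 and 24.9 CPM) and Gata2 (23.23 and 21.91 CPM), so it is not a measure of mast cells.

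The ratio of Kit to Kitl fragments within each mouse was 0.796, 0.614 and 0.581 in inhibitor mice and 0.806, 0.524 and 0.792 in controls. Control mouse 2 had the lowest ratio of all and the groups overlapped. A ratio of this kind does not depend on how libraries are scaled. Its mean log2 value differed by −0.0794 between the groups (exact permutation test, two-sided, p = 0.9; adjusted over the 3 ratios examined, p = 0.9), which is smaller than the SD of 0.242 in inhibitor mice and 0.351 in controls.

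Relays of the KIT signal were examined as a list of 23 genes, all of them tested. In estimate 22 were lower and 1 was higher (Hras, listed under its older symbol Hras1), with a median log2 fold change of −0.12, where 51% of all genes tested were lower and their median was −0.004. None passed the threshold by edgeR or DESeq2. Of all genes tested, 8.48% were lower and 9.43% higher at an unadjusted p below 0.05. Of this list 3 were lower and 0 higher by that rule. These 3 were Cbl (−0.14), a ubiquitin ligase that directs activated KIT to degradation, the docking protein gene Gab1 (−0.18) and the adaptor gene Sh2b2 (−0.45). Removal of the length and GC trend left 16 lower and 7 higher with a median of −0.0619. With inhibitor mouse 2 left out the median was −0.0807. With inhibitor mouse 3 left out it was −0.164 and 1 gene passed, lower, in a fit that called 14.3% of all genes. The summed level of the list was 633 to 697 CPM in inhibitor mice and 700 to 720 CPM in control mice. Some of these genes stood well above Kit in inhibitor mice (Sh2b3 130 and Cbl 78.9 CPM, against 21.3 CPM for Kit). The values are those of whole testis, and the cells they come from and KIT signalling itself were not tested.

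Of the SOHLH pair, Sohlh1 had the larger difference. Sohlh1 (chromosome 2, 25842995 to 25847248, reverse strand), whose loss in mice stops spermatogonia from differentiating, rested on 61, 83 and 66 fragments in inhibitor mice and 91, 201 and 128 in controls. Scaled to depth these were 2.12, 3.63 and 2.31 CPM in inhibitor mice, against 3.64, 4.58 and 4.35 CPM in controls. Inhibitor mice 1 and 3 were well below every control, whereas inhibitor mouse 2 was level with control mouse 1. The log2 fold change was −0.66 (SE 0.201, 95% interval −1.10 to −0.23, unadjusted p = 0.00615, edgeR adjusted p = 0.129), a level 36.9% lower. It was −0.926 without inhibitor mouse 2 and −0.572 without inhibitor mouse 3 (edgeR adjusted p = 0.169 and 0.0911).

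Sohlh2 (chromosome 3, 55182028 to 55209957, forward strand), whose product pairs with SOHLH1, had 11.8, 13.9 and 13.8 CPM in inhibitor mice and 14.3, 15.01 and 13.9 CPM in controls. Inhibitor mouse 1 was the low value, and the other inhibitor mice lay just under control mouse 3. The log2 fold change was −0.13 (SE 0.090, 95% interval −0.33 to 0.06, edgeR adjusted p = 0.464), and −0.0609 without inhibitor mouse 1. Whether Sohlh1 differed more than its partner was asked through the ratio of their fragments, which was 0.179, 0.262 and 0.168 in inhibitor mice, against 0.256, 0.305 and 0.312 in controls. Inhibitor mouse 2 exceeded control mouse 1, so the groups overlapped. The difference in mean log2 ratio was −0.543 (exact permutation test, two-sided, p = 0.2; adjusted over 3 ratios, p = 0.3), in a design whose smallest possible p is 0.1.

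Neurog3 (chromosome 10, 62133090 to 62134763, forward strand) had 3, 0 and 5 fragments in inhibitor mice and 10, 14 and 5 in control mice. Inhibitor mouse 3 and control mouse 3 had the same number of fragments, and no fold change is given at this depth. The totals of 8 fragments in inhibitor mice and 29 in controls correspond to 0.0930 ± 0.0880 CPM and 0.296 ± 0.117 CPM (SD, n = 3 each). In edgeR, Neurog3 entered the test where no filter on low counts was applied, and there its adjusted p was 0.273. DESeq2 was run without that filter, and its value for Neurog3 is not given here. It overlaps Fam241b on the opposite strand, and the strand setting of the counting is not given in the sources used here.

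Other bHLH genes were examined as a list of 17, of which 12 were tested. There were 7 lower and 5 higher in estimate (median −0.06), and none passed in edgeR. At an unadjusted p below 0.05 there were 2 lower and 1 higher, against 8.48% and 9.43% of all genes tested. DESeq2 called 1 lower and 1 higher, where it called 4.48% of its genes. So did edgeR without inhibitor mouse 3, in a fit that called 14.3% of all genes. With all mice, edgeR called 1 higher with no filter on low counts, where 57 genes of the table passed lower and 58 higher. It also called 1 higher with the length and GC trend removed, where 9 genes passed lower and 9 higher. With mice left out in turn the median ranged from −0.0946 without inhibitor mouse 2 to −0.0276 without control mouse 3. With no filter on low counts, which let in more genes, it was −0.124, and by limma on log2(FPKM + 1) it was −0.00658. Tcf3, which encodes the E proteins that form dimers with many bHLH factors, had 15.2 ± 1.35 CPM in inhibitor mice and 19.8 ± 1.13 CPM in controls (SD, n = 3 each), without overlap (log2 fold change −0.38, edgeR adjusted p = 0.0918). Its relative Tcf12 was at −0.19. Mesp1, a bHLH factor known from early mesoderm, was higher in each inhibitor mouse (0.31, edgeR adjusted p = 0.0826). Id4, whose product blocks E proteins and marks stem cells, and Tcfl5, a bHLH factor of spermatocytes, were added after their values were seen; they stood at −0.10 and 0.05.

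Stra8 (chromosome 6, 34920163 to 34939344, forward strand) had 8.55, 11.5 and 9.02 CPM in inhibitor mice and 12.5, 11.7 and 10.4 CPM in controls. Inhibitor mice 1 and 3 were below every control, and inhibitor mouse 2 lay among the controls. The log2 fold change was −0.25 (SE 0.122, 95% interval −0.52 to 0.01, edgeR adjusted p = 0.298). Without inhibitor mouse 2 the value was −0.390 (edgeR adjusted p = 0.235), and without inhibitor mouse 1 it was −0.171 (edgeR adjusted p = 0.617). Inhibitor mouse 2 was the higher of its group in Sohlh1 and Stra8. Its summed level for markers of undifferentiated spermatogonia was 97.8 CPM, against 119 to 121 CPM in controls. The largest parts of that sum were Id4 (mean 33.2 CPM in inhibitor mice, 35.6 CPM in controls) and Etv5 (28.7 and 31.4 CPM). Both overlapped between the groups. Why inhibitor mouse 2 was higher in Sohlh1 and Stra8 was not tested.

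Genes that act with or after STRA8 at meiotic entry were a list of 17 found in the table, all tested. There were 6 lower and 11 higher in estimate with a median of 0.03. None passed in edgeR, 0 lower and 5 higher had an unadjusted p below 0.05, and DESeq2 called 1 higher. Of all genes tested, 9.43% were higher by the unadjusted rule, and DESeq2 called 4.48% of its genes in either direction. The smallest p values were those of Spo11 (0.28), which makes the DNA breaks of meiotic recombination, Hormad1 (0.22), a protein of the chromosome axis, and Mael (0.16), a factor of transposon silencing. The direction of this list depended on processing: the median was −0.0156 with the length and GC trend removed, with 10 lower and 7 higher, and −0.00231 without inhibitor mouse 3. In that fit without inhibitor mouse 3, 4 of the genes passed, all higher. It called 14.3% of all genes, 935 lower and 1470 higher. Rec8, the meiotic cohesin gene that STRA8 is known to induce, and Ythdc2, whose product helps cells leave the mitotic programme, were at −0.13 and −0.11; both were named after their values were seen.

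The DM-domain pair had opposite signs. Dmrt1 (chromosome 19, 25505618 to 25604329, forward strand) restrains retinoic acid responses and Stra8 in spermatogonia and is also expressed in Sertoli cells. It had 19.0, 21.0 and 22.1 CPM in inhibitor mice and 24.1, 27.0 and 25.7 CPM in control mice. Each inhibitor mouse was below each control, and the gap between the groups was narrower than the range within either. The log2 fold change was −0.31 (SE 0.079, 95% interval −0.48 to −0.14, unadjusted p = 0.00205, edgeR adjusted p = 0.103), a level 19.3% lower. Without inhibitor mouse 3 it passed (−0.361, edgeR adjusted p = 0.00791), in a fit that called 14.3% of all genes. No other member passed without that mouse. In that fit Kit was at −0.182, Sohlh2 at −0.173, Stra8 at −0.208 and Dmrtb1 at 0.0815.

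Sertoli cell genes are given beside Dmrt1 and Kitl because those cells express both. Of 15 Sertoli genes 11 were lower and 4 higher in estimate (median −0.05). None passed in edgeR. At an unadjusted p below 0.05 there were 2 lower and 2 higher, against 8.48% and 9.43% of all genes tested. DESeq2 called 2 higher, and 4.48% of its genes in either direction. Without inhibitor mouse 3, 4 Sertoli genes passed lower and 2 higher and the median was −0.152. That is the fit in which Dmrt1 passed and 14.3% of all genes were called. Without inhibitor mouse 1 the median was −0.0191. Their summed level was 1504 to 1794 CPM in inhibitor mice and 1595 to 1641 CPM in controls. Cst9 (0.23), Cst12 (0.28) and Amh (−0.65) had the smallest p values. The part of Sertoli cells in the Dmrt1 difference was not tested.

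Dmrtb1 (chromosome 4, 107676290 to 107684230, reverse strand), known in mice for closing the mitotic programme in late spermatogonia, had the opposite sign. It stood at 557, 540 and 579 CPM in inhibitor mice and 517, 524 and 514 CPM in controls, on at least 12337 fragments per library. Every inhibitor mouse was above every control, and the controls differed among themselves by 1.00% (coefficient of variation). The log2 fold change was 0.11 (SE 0.042, 95% interval 0.02 to 0.20, unadjusted p = 0.0253, edgeR adjusted p = 0.211), a level 7.78% higher. With the length and GC trend removed it was 0.166 (SE 0.0372, edgeR adjusted p = 0.116), and with library totals alone it was 0.0775. Of 10 spermatid genes, 8 were higher in estimate and 2 lower (median 0.10). None passed in edgeR. At an unadjusted p below 0.05 there were 1 lower and 4 higher, against 8.48% and 9.43% of all genes tested. DESeq2 called 2 higher, and 4.48% of its genes in either direction. Without inhibitor mouse 3, in the fit that called 14.3% of all genes, 5 spermatid genes passed higher and the median was 0.152. Without inhibitor mouse 2 the median was 0.0595. Their summed level was 16500 to 18380 CPM in inhibitor mice against 15360 to 16120 CPM in controls. The part of the germ cell composition in the Dmrtb1 value was not tested. Akap4 (0.17), Prm2 (0.16) and Catsper1 (−0.15) were the spermatid genes with the smallest p values.

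The ratio of Dmrt1 to Dmrtb1 fragments was 0.0342, 0.0388 and 0.0382 in inhibitor mice and 0.0466, 0.0515 and 0.04997 in control mice. No inhibitor value reached a control value. The difference in mean log2 ratio was −0.415 (exact permutation test, two-sided, p = 0.1, the smallest that 3 against 3 mice allow; adjusted over 3 ratios, p = 0.3), larger than the SD of 0.0992 in inhibitor mice and 0.0746 in controls. With each mouse left out in turn it lay between −0.456 and −0.358.

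Among the other DM-domain genes, 8 were in the table and 7 were tested, with 5 lower and 2 higher in estimate (median −0.07, ranging from −0.00436 without inhibitor mouse 1 to −0.168 without inhibitor mouse 3). None was past the threshold in edgeR or DESeq2, and none had an unadjusted p below 0.05 in either. Dmrt3 had 2.82 ± 0.475 CPM in inhibitor mice and 3.58 ± 0.408 CPM in controls (SD, n = 3 each; log2 fold change −0.35). Dmrt2 had 0.480 ± 0.0920 CPM in inhibitor mice and 0.247 ± 0.114 CPM in controls, the estimate farthest from 0 in the list (0.86, SE 0.416, edgeR adjusted p = 0.303). Dmrta2 was at −0.22. Dmrtc2, a testis gene of this family named after its value was seen, was at −0.07. Dmrtc1a (0.03) and Dmrtc1b (−0.01) are near-identical copies between which fragments may have been split, so their separate values are uncertain.

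On the FPKM scale, which divides by transcript length so that genes can be set side by side, the members ran in the order Dmrtb1, Dmrt1, Stra8, Sohlh2, Kitl, Kit, Sohlh1 and Neurog3. Over all 6 mice Dmrtb1 averaged 332 ± 16.1 FPKM, above 98.7% of the genes in the table. Dmrt1 followed at 11.1 ± 1.42 FPKM and Stra8 at 8.31 ± 1.22 FPKM. Sohlh2 and Kitl could not be ordered, at 6.30 ± 0.482 and 6.24 ± 0.718 FPKM, with Sohlh2 the higher in 4 of 6 mice. Kit stood at 4.46 ± 0.608 FPKM, Sohlh1 at 3.11 ± 0.920 FPKM and Neurog3 at 0.143 ± 0.106 FPKM (SD, n = 6). The ranges over mice overlapped between Dmrt1 and Stra8, between Stra8 and Sohlh2 and between Kit and Sohlh1 too, although within every mouse Dmrt1 exceeded Stra8 and Stra8 exceeded Sohlh2. Dmrtb1 lay clear of Dmrt1, Kitl clear of Kit and Sohlh1 clear of Neurog3.

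**Figure D4:**
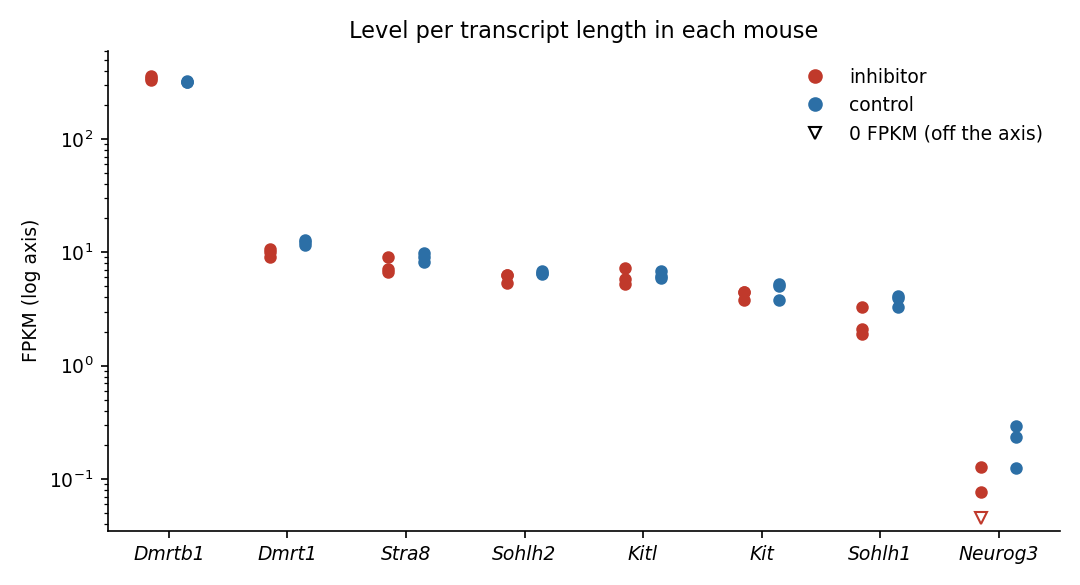
FPKM of each member (log y axis) in the 3 inhibitor mice (red) and the 3 control mice (blue), genes in order of mean level. Dmrtb1 lies between 317 and 358 FPKM, 6 members lie between 1.92 and 12.9 FPKM, and Neurog3 lies below 0.3 FPKM with 1 inhibitor mouse at 0 (open triangle).

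Other genes of the same cells are given as background to the members. Among 17 further markers of differentiating spermatogonia, 16 were lower and 1 was higher in estimate, with a median log2 fold change of −0.28. In edgeR 1 passed, in the lower direction. At an unadjusted p below 0.05 there were 10 lower and 0 higher, against 8.48% and 9.43% of all genes tested. DESeq2 called 3, all lower, where it called 4.48% of its genes. Limma called none of the list, and of all genes 0 with log2(FPKM + 1) and 1 with log2(FPKM + 0.1). No gene of this list passed in edgeR with inhibitor mouse 1 or 2 or any single control mouse left out. In the whole table none passed in those fits either, apart from 7 lower and 3 higher without control mouse 3. In those fits 15 or 16 of the list were lower in estimate, with medians from −0.278 to −0.226. The gene that passed with all mice was Ccnd2, a G1 cyclin gene, which fell to 5.28 ± 0.220 CPM in inhibitor mice, against 8.70 ± 0.424 CPM in controls (SD, n = 3 each; edgeR adjusted p = 0.0319). Dnmt3b, a DNA methyltransferase gene, was at −0.53 and the transcription factor gene Sall4 at −1.66; neither passed. Ccnd2 and Sall4 are expressed in undifferentiated spermatogonia as well. The higher one was Ddx4 (0.07), a germ cell helicase gene that spermatocytes express too, named after its value was seen.

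Among markers of undifferentiated spermatogonia, 16 of 20 were tested, 13 were lower and 3 higher in estimate (median −0.38), and 4 passed, all of them lower: Ret (−1.91), Sox3 (−1.50), Lin28a (−1.13) and Zbtb16 (−0.99). Their estimates were farther from 0 than that of Sohlh1 (−0.66), the lowest of the tested members; the difference between them was not tested. DESeq2, which gave no adjusted p to many low genes, called 2 of the list, where it called 4.48% of its genes. Limma called none, where it called at most 1 of all genes. With inhibitor mouse 3 left out, 7 of the undifferentiated markers and 8 of the differentiating ones passed in edgeR, all lower, in a fit that called 14.3% of all genes (935 lower and 1470 higher) and in which genes of the KIT, bHLH, STRA8, Sertoli, spermatid and Leydig lists passed too. With inhibitor mouse 1, inhibitor mouse 2, control mouse 1 or control mouse 2 left out, no gene of the whole table passed, Ret included, and without control mouse 3 there was 1 undifferentiated marker past it. The summed level of this list was 94.6 to 106 CPM in inhibitor mice and 119 to 121 CPM in controls. Id4 and Etv5, whose groups overlapped, made up the largest parts of it. Of 9 Leydig cell genes, 7 were lower and 2 higher (median −0.06, or 0.03 without inhibitor mouse 1 and −0.202 without inhibitor mouse 2). None passed in edgeR or DESeq2, while 1 passed lower in edgeR without inhibitor mouse 3. At an unadjusted p below 0.05 in edgeR 2 were lower, as were 8.48% of all genes tested. Nr5a1 was at −0.17, Insl3 at −0.22 and Star at −0.40.

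**Figure D5:**
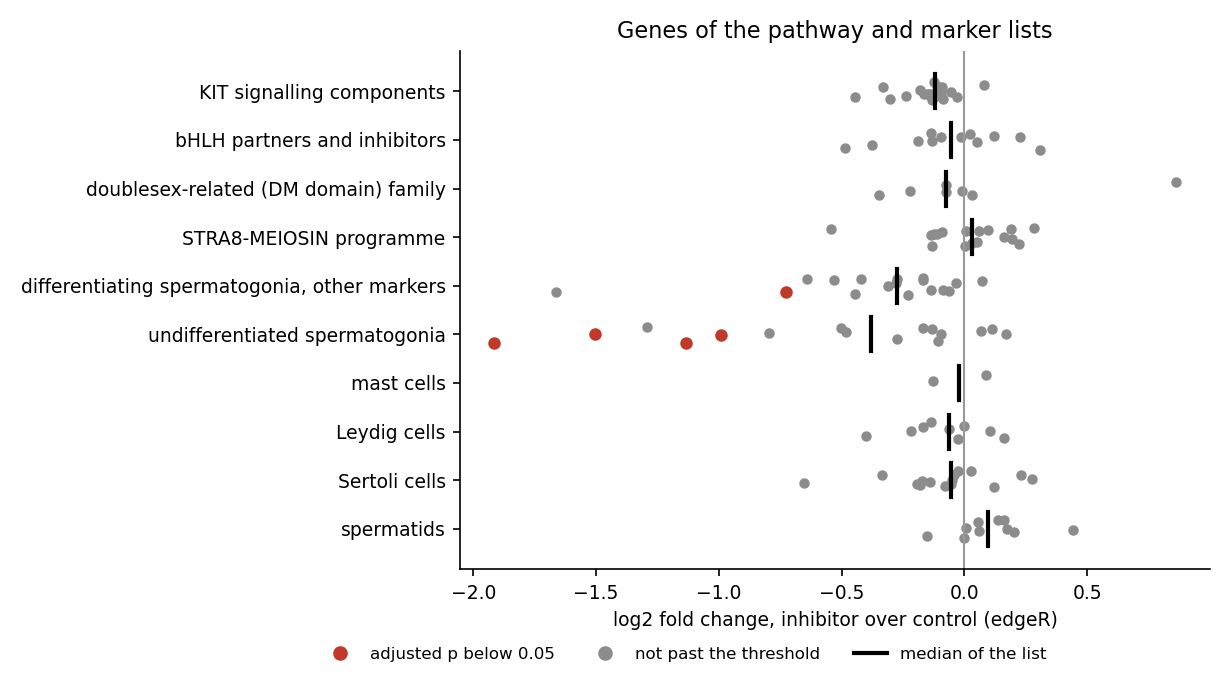
Log2 fold change of inhibitor over control (x axis) for each tested gene of 10 lists (grey points; red, adjusted p below 0.05 in the edgeR test), with the list median as a black bar. The 5 genes past the threshold are in the lists of undifferentiated and differentiating spermatogonia, whose medians are −0.38 and −0.28; the other medians lie between −0.12 and 0.10.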

How the data were processed

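PolyA-selected RNA from 6 whole testes was sequenced as single-end reads of 81 nt, per the series' design text. The submitters' processing notes name cutadapt 1.8, TopHat2 2.0.13, Cuffdiff 2.2.1 and mm10; what each did, and with which annotation and strand setting, is not given in the sources used here. The authors deposited unscaled expected counts of fragments per gene, of which 98.8% were whole within 1e-06, all member values among them; the rest were rounded. The FPKM values were scaled for length and depth by the authors and deposited alongside.

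Genes with low counts were removed by filterByExpr of edgeR 4.0.16 (R 4.3.3), libraries were scaled by TMM, and a robust quasi-likelihood F-test, two-sided, with Benjamini-Hochberg adjustment was run across all genes (common coefficient of variation 8.02%). The procedure was tested on simulated counts. Alternatives were RLE or library-total scaling, DESeq2 1.42.0, limma 3.58.1 on log2(FPKM + 1) or log2(FPKM + 0.1), no filter, at least 50 counts in 3 libraries, a replicate block, removal of a loess trend (span 0.5) on transcript length and GC content, and each mouse left out. Loci, lengths and overlaps came from GENCODE M21 (GRCm38), upstream sequences from RefSeq (GRCm38.p6; 7 of 8 members). Members and lists were chosen with earlier results of these data known. From each list the 3 tested genes with the smallest p were named, and any past the threshold.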

Additional observations from a re-analysis of the deposited data

How the results depend on the processing

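No member but Dmrt1 and Kitl changed its side of the threshold or its direction under any alternative run, apart from Sohlh1, to which DESeq2 gave no adjusted p. DESeq2 put Dmrt1 past it (−0.305, adjusted p = 0.0476); with mice left out in turn Dmrt1 ranged from −0.361 to −0.251 (edgeR adjusted p 0.00791 to 0.349), Kitl from −0.203 to 0.0357, and the log2 ratio of Kit to Kitl from −0.282 to 0.0277. The 16 lower and 10 higher genes past the threshold became 165 lower and 363 higher with DESeq2, 57 and 58 with no filter on low counts, 7 and 3 with at least 50 counts in 3 libraries, 0 and 0 with limma on log2(FPKM + 1) (1179 and 1603 at an unadjusted p below 0.05), 1 and 0 with log2(FPKM + 0.1), and 5 and 0 with the mouse number as replicate block. Library totals alone gave 23 lower and 4 higher, and removal of the length and GC trend gave 9 and 9. With mice left out in turn the lower calls ranged from 0 to 935 and the higher ones from 0 to 1470, the top of both without inhibitor mouse 3 and 0 without inhibitor mouse 1 or 2 or control mouse 1 or 2 (945 to 1085 lower and 973 to 1124 higher at an unadjusted p below 0.05); without control mouse 3 there were 7 and 3. The cause was not tested. The labels do not say that a mouse number pairs animals. Deviations from the group mean correlated at 0.0619, −0.116 and −0.0203 for same-numbered mice, and between −0.159 and 0.173 for differently numbered ones. With only 3 mice a group, each centred on its own mean, these values cannot decide whether animals were paired. With 3 mice a group, the widest interval of a tested member, that of Sohlh1, spans −1.10 to −0.23.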

Other observations

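For each tested member, the genes whose log2 CPM followed it most closely over the 6 libraries were looked up among 15027 others whose mean log2 CPM reached 0. These Pearson coefficients describe 6 libraries that share depth and composition, and many genes reach high values: between 53 (Kit) and 484 (Dmrt1) genes exceeded 0.9. Dmrt1 was followed by Sh3bp4 and the diacylglycerol kinase gene Dgkz (0.997 each, with log2 fold changes of −0.32 and −0.22). Dmrtb1 was followed by Ppp2r2b, a regulatory subunit gene of protein phosphatase PP2A (0.998), and Amdhd2 (0.994), whose log2 fold changes of 0.11 and 0.12 were of the same size as its own.

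Sohlh1 was followed by Actr5 (0.988), a subunit gene of the INO80 remodelling complex, and the glycine transporter gene Slc6a9 (0.985), and Sohlh2 by the kinase scaffold gene Ksr1 (0.993) and Sike1 (0.991). The closest to Stra8 were Akna (0.994) and BC017158 (0.993). Kitl was followed by Mak (0.994), a kinase gene of male germ cells, and Arl4d (0.991), and Kit by Samd9l (0.984) and Aff2 (0.980). The log2 fold changes of these genes were not always near those of the member. Actr5 and Slc6a9 were at −0.07 and −0.23, against −0.66 for Sohlh1. Akna and BC017158 were at −0.06 and −0.21, against −0.25 for Stra8, and Ksr1 and Sike1 at −0.27 and −0.10, against −0.13 for Sohlh2. The 6 libraries hold both groups, so a shared group difference can raise a coefficient. No gene was among the closest ones of more than 1 member.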
